A study of Mus musculus with 10 samples.

Results

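Expression of 30 genes of cholesterol synthesis and of the SREBP pathway was followed in the hippocampus of APP/PS1 mice given irisin or a control protein through the circulation. The genes were taken from a list of symbols and kept where 5 or more of the 10 libraries had a deposited normalised count of at least 10. All 30 listed genes were in the table and all 30 passed, among 17556 genes tested of 31510 in the table. Each animal was a male of the APP/PS1 strain, whose transgenes are driven by the mouse prion promoter and lead to amyloid deposits in the brain, so the control mice carry the transgenes too. At 8 months of age 5 mice were injected in the tail vein with AAV8-GFP and 5 with AAV8-Irisin-FLAG, a vector for FLAG-tagged irisin meant to be made by the liver. Irisin is the secreted fragment of a muscle membrane protein. The dissected hippocampus was sequenced 2 months later, 1 library per mouse, and the groups are called AAV8-GFP and AAV8-irisin here. Neither the irisin in the blood nor wild-type mice were analysed here.

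Cholesterol is built from acetyl-CoA through mevalonate, farnesyl diphosphate, squalene and lanosterol. The brain makes its own, because the blood-brain barrier keeps lipoprotein cholesterol out, and glia carry out much of this synthesis in the adult. The enzymes share a control: SREBP-2, and for fatty acids SREBP-1, are membrane-bound transcription factors that the escort protein SCAP carries out of the endoplasmic reticulum when sterols are low, while INSIG proteins hold SCAP back when sterols are high. The list holds 7 genes of the mevalonate steps, 3 of the squalene and lanosterol steps, 8 of the steps from lanosterol to cholesterol, 5 of the SREBP factors and their control, 2 of sterol transport and removal and 5 of fatty acid synthesis.

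SREBPs bind sterol regulatory elements, often near a CCAAT box that binds NF-Y. RefSeq promoter tables (GRCm38.p6, the same assembly as mm10) held 24 of the 30 genes, and the 250 bases before each start were searched on both strands for TCACNCCA, the core of a classic sterol element, and for CCAAT. The 2 patterns can share letters, which they do not in the stretches printed here. TCACNCCA stood upstream of 3 of the 24 genes (12.5%), namely Hmgcs1, Msmo1 and Srebf2, and upstream of 4.20% of all 27025 genes in the tables. CCAAT stood upstream of 20 of the 24 (83.3%) and of 37.5% of all genes. These are matches of letters in short windows and not measured binding. Stretches of the Hmgcs1 and Srebf2 windows are shown because Hmgcs1 encodes an early enzyme of the pathway and is the gene the others are set against below, and Srebf2 encodes its main regulator. They are cut to the part around the matches, bases 250 to 26 before the RefSeq start for Hmgcs1 and 177 to 116 for Srebf2. These RefSeq starts differ from the gene starts printed below, which are from GENCODE. Both are printed 5′ to 3′ on the plus strand, the strand of the gene, with matches in capitals. CCAAT on the other strand reads ATTGG.
Hmgcs1, chr13:119690101-119690325: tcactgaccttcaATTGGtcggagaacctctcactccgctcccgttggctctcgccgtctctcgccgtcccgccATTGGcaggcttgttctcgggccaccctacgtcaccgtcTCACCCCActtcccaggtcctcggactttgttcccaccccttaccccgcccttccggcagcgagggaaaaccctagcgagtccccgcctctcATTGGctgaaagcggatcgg
Srebf2, chr15:82147092-82147153: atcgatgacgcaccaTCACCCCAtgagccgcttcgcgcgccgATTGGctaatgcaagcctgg
In the Hmgcs1 stretch the sterol element lies between CCAAT boxes. In Srebf2 the single CCAAT box follows it closely.

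The deposited values summed to 35300000 to 36600000 per library, and 22434 to 23035 genes had a value above 0. The 7 markers of hippocampal neurons were present in every library, with a lowest single value of 1441 normalised counts. AAV8-GFP mouse 1 stood apart. Its limma quality weight was 0.346 against 0.847 to 1.35 in the other 9 mice. It held the highest or the lowest value of 15 of the 30 pathway genes, and of 40.5% of all genes tested. Where leaving it out turned the sign of a pathway gene or moved its log2 difference by over 1.5 times, the value without it is given too. The 10 markers of oligodendrocytes and myelin all had higher means in AAV8-irisin (median log2 difference 0.11, summed level 106290 to 142158 in AAV8-GFP and 123326 to 147568 in AAV8-irisin). Of 10 astrocyte markers 8 had lower means (median −0.043, summed level 160118 to 201553 and 167267 to 175059). All 8 microglial markers were lower (median −0.089), as were all 7 endothelial and mural markers (median −0.060) and all 5 blood markers (median −0.65, summed level 1586 to 4502 and 1669 to 3211). The 8 neuronal markers had a median of 0.0087. At an unadjusted p under 0.05 lay 3 of the 5 blood markers, where 4.49% of all genes did. The 6 choroid plexus markers tested were all higher (median 0.47), 2 of them at an unadjusted p under 0.05. The 9 listed summed to 853 to 1103 in AAV8-GFP and 1083 to 2868 in AAV8-irisin, where mouse 4 alone had 2868 and the other 4 at most 1243. Otx2 and Slc4a5 were listed at 0 in some libraries. No marker passed the test, and the part of these cell types in the results was not tested. In whole tissue, fewer cells of a type and less RNA per cell cannot be told apart.

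No gene of cholesterol synthesis or of the SREBP pathway passed the test between AAV8-irisin and AAV8-GFP. By limma on log2(value + 1), 0 of 30 had an adjusted p under 0.05, and adjusted p-values ran from 0.942 to 0.998. Across all genes tested, 0% passed. At an unadjusted p under 0.05 there was 1 pathway gene, Ebp, higher in AAV8-irisin, where 4.49% of all genes lay under that limit (788 genes), 2.28% higher and 2.21% lower. In no pathway gene were the 5 mice of one group all beyond the 5 of the other, which 0.803% of all genes showed (0.382% with AAV8-irisin higher). Of the 30 genes 11 had higher and 19 lower means in AAV8-irisin. The median log2 difference was −0.017, beside 0.00099 over all genes, 49.5% of which had lower means. Without AAV8-GFP mouse 1 the pathway median was −0.00065 and 16 genes had lower means. Here and below a log2 difference is AAV8-irisin minus AAV8-GFP, SE is its standard error, and ± gives the SD over mice.

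The estimates were narrow. The standard error of a log2 difference had a median of 0.051 over the pathway genes and 0.075 over all genes, and 4 of the 30 lay above that second value. Pathway genes and all genes were not matched for expression level, here or for the intervals below. The 95% interval lay within 1.2-fold in either direction for 27 of the 30 genes, as it did for 56.9% of all genes. It lay within 1.1-fold for 14 genes and within 1.3-fold for 30. These folds were chosen after the values were seen. The 3 genes whose interval passed 1.2-fold were Ebp, Acaca and Mvd.

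**Figure D1:**
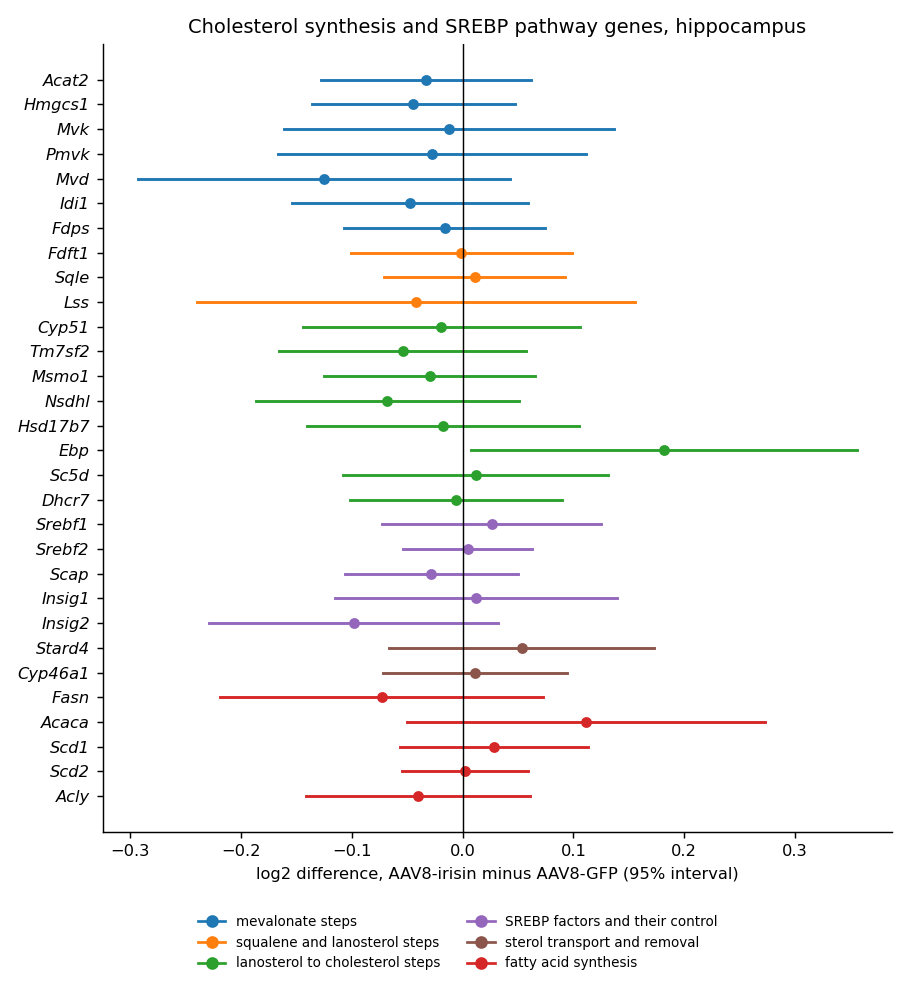
Log2 difference of each of the 30 genes (x axis, mean log2(value + 1) of AAV8-irisin mice less that of AAV8-GFP mice), as a point with its 95% interval from limma, coloured by role, with 5 mice per group. The interval of Ebp, from 0.0071 to 0.36, is the only one of the 30 that leaves out 0, and its adjusted p is 0.942.

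All 7 genes of the mevalonate steps had lower means in AAV8-irisin, by small amounts (median of the log2 differences −0.033). None passed the test. Without AAV8-GFP mouse 1 the count was 4 of 7, with a median of −0.015. Hmgcs1 encodes the synthase that forms HMG-CoA (chromosome 13, 119690379 to 119708260, plus strand). Its normalised counts were 8029, 9059.7, 8626, 8396 and 8794 in AAV8-GFP mice 1 to 5. In AAV8-irisin mice 1 to 5 they were 8905, 8660.5, 7871, 7908 and 8274. AAV8-irisin mice 3 and 4 were the lowest of all, AAV8-GFP mouse 2 was the highest, and the groups overlapped. The means were 8581 ± 392 normalised counts with AAV8-GFP against 8324 ± 456 with AAV8-irisin (SD, n = 5 each), which is −0.044 on the log2 scale (SE 0.043, 95% interval −0.14 to 0.047, limma adjusted p = 0.942), and −0.068 without AAV8-GFP mouse 1.

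Mvd, which decarboxylates mevalonate diphosphate to isopentenyl diphosphate (chromosome 8, 122433601 to 122443422, minus strand), had 709.8, 573, 620.0, 553 and 577 normalised counts in AAV8-GFP mice 1 to 5 and 586, 564, 476, 564 and 587 in AAV8-irisin mice 1 to 5. AAV8-GFP mouse 1 was far above and AAV8-irisin mouse 3 far below the other mice, which lay between 553 and 620. The means were 606 ± 62.8 normalised counts with AAV8-GFP against 555 ± 45.5 with AAV8-irisin, which is −0.13 on the log2 scale (SE 0.078, 95% interval −0.29 to 0.043, limma adjusted p = 0.942). Without AAV8-GFP mouse 1 it was −0.067 and without AAV8-irisin mouse 3 −0.071 on the log2 scale.

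The other mevalonate genes had log2 differences nearer to 0. Acat2, the cytosolic thiolase that starts the pathway, had 1303 ± 55.4 normalised counts with AAV8-GFP against 1273 ± 45.2 with AAV8-irisin, or −0.033 on the log2 scale. Idi1, the isomerase of isopentenyl diphosphate, had 1502 ± 73.9 normalised counts with AAV8-GFP against 1453 ± 82.4 with AAV8-irisin, or −0.047 on the log2 scale. Its lowest mouse was AAV8-irisin mouse 4 and its highest AAV8-GFP mouse 1. The log2 differences of Acat2 and Idi1 were −0.015 and −0.029 without AAV8-GFP mouse 1.
Mevalonate is phosphorylated by the kinases of Mvk and Pmvk. Mvk had 576 ± 38 normalised counts with AAV8-GFP against 571 ± 49.4 with AAV8-irisin, or −0.013 on the log2 scale, and Pmvk had 762 ± 75.6 normalised counts with AAV8-GFP against 745 ± 26.8 with AAV8-irisin, or −0.028 on the log2 scale. Fdps, which makes farnesyl diphosphate for sterols and for protein prenylation, had 1879 ± 105 normalised counts with AAV8-GFP against 1856 ± 32.8 with AAV8-irisin, or −0.016 on the log2 scale. AAV8-GFP mouse 1 was the highest mouse for Acat2, Pmvk, Mvd, Idi1 and Fdps. Without it the log2 differences of Mvk, Pmvk and Fdps were 0.015, 0.027 and 0.017. Reads of some mevalonate genes could also fit other transcripts. Of the 50-base words of Acat2 45.9% are shared with Acat3, 30.5% of those of Idi1 with other transcripts, chiefly Gm13502 (21.3%), and 86.4% of those of Fdps with other transcripts, chiefly an overlapping gene model on the same strand whose own median was 0. Their values are uncertain for that reason. Acat3 had a median of 232 normalised counts, against 1273 for Acat2. Hmgcs1 shares 13.6% of its 50-base words with Gm48342, an overlapping gene on the opposite strand, so its value is partly uncertain too. Gm48342 had a median of 14.6 normalised counts.

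The 3 genes that take farnesyl diphosphate to lanosterol had log2 differences between −0.042 and 0.011. Sqle, the squalene epoxidase and a second control point of the pathway (chromosome 15, 59315077 to 59331192, plus strand), had 2302, 2376, 2311, 2242 and 2249 normalised counts in AAV8-GFP mice 1 to 5 and 2438, 2364, 2210.0, 2229 and 2329 in AAV8-irisin mice 1 to 5. AAV8-irisin mice held both the highest value (mouse 1) and the lowest (mouse 3). The means were 2296 ± 54.2 normalised counts with AAV8-GFP against 2314 ± 95.1 with AAV8-irisin, which is 0.011 on the log2 scale (SE 0.038, 95% interval −0.071 to 0.093, limma adjusted p = 0.975). Lss, the cyclase that forms lanosterol (chromosome 10, 76531588 to 76557138, plus strand), had 1212, 1886, 1649.7, 1477 and 1381 normalised counts in AAV8-GFP mice 1 to 5 and 1532, 1529, 1364, 1409.9 and 1475 in AAV8-irisin mice 1 to 5. The AAV8-GFP mice spread widely, with mouse 1 lowest and mouse 2 highest of all 10, and all 5 AAV8-irisin mice fell between them. The means were 1521 ± 258 normalised counts with AAV8-GFP against 1462 ± 73.9 with AAV8-irisin, which is −0.042 on the log2 scale (SE 0.092, 95% interval −0.24 to 0.16, limma adjusted p = 0.967). Its sign turned without AAV8-GFP mouse 2, to 0.039, and the value was −0.12 without AAV8-GFP mouse 1. Fdft1, the squalene synthase, had 2924 ± 147 normalised counts with AAV8-GFP against 2922 ± 160.4 with AAV8-irisin, or −0.0011 on the log2 scale and 0.024 without AAV8-GFP mouse 1. An exon of Fdft1 overlaps exons of Ctsb on the opposite strand, and 30.7% of its 50-base words occur in other transcripts, which leaves its value uncertain.

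Ebp was the gene with the largest difference among the 8 that turn lanosterol into cholesterol, and among all 30. It encodes the sterol isomerase that moves a double bond in the ring system (chromosome X, 8185329 to 8193512, minus strand), and it had 350.2, 313, 306, 399.5 and 334 normalised counts in AAV8-GFP mice 1 to 5 and 389, 357, 381, 371 and 429 in AAV8-irisin mice 1 to 5. Every AAV8-irisin mouse lay above 4 of the 5 AAV8-GFP mice, but AAV8-GFP mouse 4 was above 4 of the 5 AAV8-irisin mice. The means were 341 ± 37.3 normalised counts with AAV8-GFP against 385 ± 27.2 with AAV8-irisin, which is 0.18 on the log2 scale (SE 0.081, 95% interval 0.0071 to 0.36, limma adjusted p = 0.942). The unadjusted p was 0.0425 by limma, and the exact two-sided permutation of the 10 mice gave p = 0.0714, unadjusted, where 0.00794 is the smallest this design can give. Leaving out single mice gave log2 differences of 0.14 to 0.24. It was 0.24 without AAV8-GFP mouse 4, where the groups did not overlap, as in 1.58% of all genes, and 0.14 without AAV8-irisin mouse 5.

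**Figure D2:**
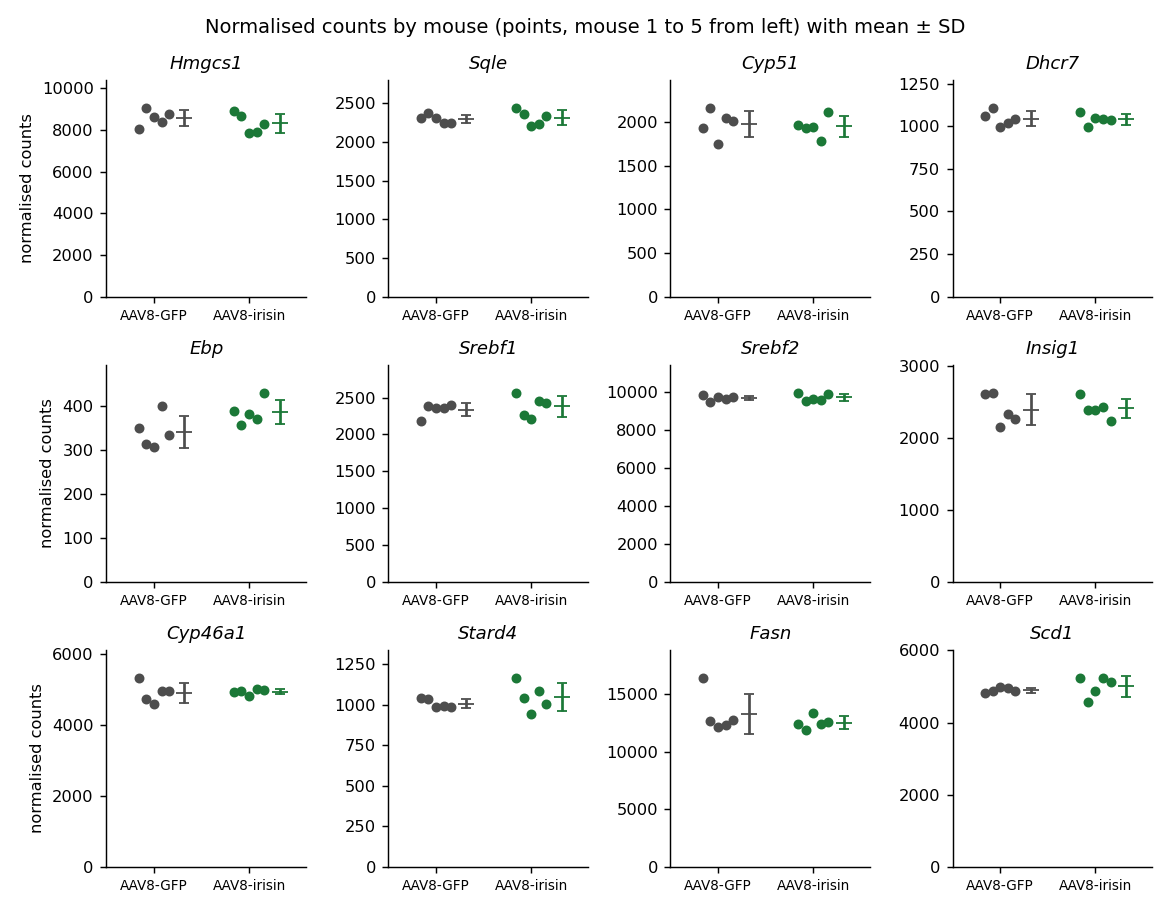
Normalised counts (y axes, from 0) of 12 pathway genes in each mouse of AAV8-GFP (grey) and AAV8-irisin (green), with the mean and SD of 5 mice beside the points. The groups overlap in all 12 panels, Srebf2 has almost no spread, and AAV8-GFP mouse 1 is separate from the other mice for Fasn, at 16378.

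In the other direction, Nsdhl had the next smallest p of the late steps. Nsdhl, a dehydrogenase that helps to strip methyl groups from the sterol ring (chromosome X, 72918557 to 72958514, plus strand), had 736, 675, 745, 660.4 and 701 normalised counts in AAV8-GFP mice 1 to 5 and 692, 625, 695, 646 and 697 in AAV8-irisin mice 1 to 5. AAV8-irisin mice 2 and 4 were the lowest, and the other 3 lay among the AAV8-GFP mice. The means were 703 ± 36.8 normalised counts with AAV8-GFP against 671 ± 33.5 with AAV8-irisin, which is −0.068 on the log2 scale (SE 0.055, 95% interval −0.19 to 0.051, limma adjusted p = 0.942). Cyp51, the cytochrome P450 that demethylates lanosterol (chromosome 5, 4081145 to 4104746, minus strand), had 1931, 2162, 1748, 2043 and 2009 normalised counts in AAV8-GFP mice 1 to 5 and 1972, 1939, 1940.3, 1781 and 2122 in AAV8-irisin mice 1 to 5. Its lowest and highest mice were both in AAV8-GFP (mice 3 and 2). The means were 1979 ± 153 normalised counts with AAV8-GFP against 1951 ± 121 with AAV8-irisin, which is −0.019 on the log2 scale (SE 0.058, 95% interval −0.14 to 0.11, limma adjusted p = 0.971). Dhcr7, the reductase of the last precursor of cholesterol (chromosome 7, 143823145 to 143848410, plus strand), had 1060.0, 1107, 994, 1021 and 1044 normalised counts in AAV8-GFP mice 1 to 5 and 1082, 994, 1048, 1041 and 1038 in AAV8-irisin mice 1 to 5. The 2 groups covered nearly the same range. The means were 1045 ± 42.7 normalised counts with AAV8-GFP against 1040.4 ± 31.3 with AAV8-irisin, which is −0.0060 on the log2 scale (SE 0.045, 95% interval −0.10 to 0.090, limma adjusted p = 0.988), and −0.00067 without AAV8-GFP mouse 1.

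The remaining genes of the late steps likewise overlapped between the groups. Msmo1, a methylsterol oxidase, had 2489.9 ± 129 normalised counts with AAV8-GFP against 2438 ± 108 with AAV8-irisin, or −0.030 on the log2 scale. AAV8-GFP mouse 1 was its highest mouse, and without it the log2 difference was −0.00063. Tm7sf2, a sterol reductase, had 562 ± 11.6 normalised counts with AAV8-GFP against 542 ± 25.2 with AAV8-irisin, or −0.054 on the log2 scale. An exon of it overlaps one of Vps51 on the same strand, so its value is uncertain. Hsd17b7, a keto-sterol reductase, had 826 ± 28.1 normalised counts with AAV8-GFP against 818 ± 62.6 with AAV8-irisin, or −0.018 on the log2 scale, and Sc5d, a desaturase, had 2402 ± 194 normalised counts with AAV8-GFP against 2418 ± 121 with AAV8-irisin, or 0.012 on the log2 scale. Their log2 differences were −0.040 and −0.031 without AAV8-GFP mouse 1. Of the 18 enzymes of sterol synthesis together, 15 had lower means in AAV8-irisin (median of the log2 differences −0.023). The count was 12 without AAV8-GFP mouse 1 or AAV8-irisin mouse 4 and 11 without AAV8-GFP mouse 2. The medians of astrocyte (−0.043), microglial (−0.089), endothelial and mural (−0.060) and blood markers (−0.65) had the same sign as the sterol enzymes. So did those of oligodendrocyte precursor (−0.020) and hippocampal neuron markers (−0.0076). The medians of oligodendrocyte and myelin (0.11), neuronal (0.0087) and choroid plexus markers (0.47) had the opposite sign. No list held a gene that passed, and the part of cell types in the sterol enzymes was not tested.

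The SREBP factors were nearly equal between the groups. Srebf2, which encodes SREBP-2 (chromosome 15, 82147181 to 82205379, plus strand), had 9830.4, 9479, 9706, 9648 and 9723 normalised counts in AAV8-GFP mice 1 to 5 and 9931, 9522, 9623, 9553 and 9910.3 in AAV8-irisin mice 1 to 5. Its 10 values varied by 1.63% (SD over mean), the least of the 30 genes, and the groups overlapped. The means were 9677 ± 129 normalised counts with AAV8-GFP against 9708 ± 198 with AAV8-irisin, which is 0.0044 on the log2 scale (SE 0.027, 95% interval −0.054 to 0.063, limma adjusted p = 0.987). In percent the interval ran from −3.66 to 4.43. Without AAV8-GFP mouse 1 the log2 difference was 0.010. Srebf1, which encodes both forms of SREBP-1 (chromosome 11, 60199089 to 60222581, minus strand), had 2186, 2379.8, 2358, 2359 and 2399 normalised counts in AAV8-GFP mice 1 to 5 and 2561, 2259, 2213, 2453 and 2420.5 in AAV8-irisin mice 1 to 5. AAV8-irisin mouse 1 was the highest and AAV8-GFP mouse 1 the lowest, and 3 of the AAV8-irisin mice exceeded every AAV8-GFP mouse. The means were 2336 ± 85.7 normalised counts with AAV8-GFP against 2381 ± 143 with AAV8-irisin, which is 0.026 on the log2 scale (SE 0.046, 95% interval −0.072 to 0.12, limma adjusted p = 0.962). Without AAV8-irisin mouse 1 it was −0.00056 and without AAV8-GFP mouse 1 0.0024. SREBPs are activated by cleavage of the protein, which RNA levels do not show.

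The genes that hold or release the SREBPs also overlapped between the groups. Insig1, itself a target of SREBPs and so a common readout of their activity (chromosome 5, 28071363 to 28078662, plus strand), had 2611, 2618, 2141, 2326 and 2254 normalised counts in AAV8-GFP mice 1 to 5 and 2603, 2386, 2378, 2424 and 2236 in AAV8-irisin mice 1 to 5. AAV8-GFP mice 1 and 2 and AAV8-irisin mouse 1 were the 3 highest. The means were 2390.2 ± 215 normalised counts with AAV8-GFP against 2405 ± 132 with AAV8-irisin, which is 0.012 on the log2 scale (SE 0.059, 95% interval −0.12 to 0.14, limma adjusted p = 0.984), and 0.045 without AAV8-GFP mouse 1. Insig2, whose product does the same work but is not driven by SREBPs in the same way (chromosome 1, 121304353 to 121332589, minus strand), had 1467, 1848, 1596, 1641 and 1743 normalised counts in AAV8-GFP mice 1 to 5 and 1428, 1624, 1528, 1508 and 1647 in AAV8-irisin mice 1 to 5. AAV8-irisin mouse 1 was the lowest and AAV8-GFP mouse 2 the highest. The means were 1659 ± 145 normalised counts with AAV8-GFP against 1547 ± 89.3 with AAV8-irisin, which is −0.10 on the log2 scale (SE 0.061, 95% interval −0.23 to 0.032, limma adjusted p = 0.942). Without AAV8-GFP mouse 1 its log2 difference was −0.14 with an unadjusted limma p of 0.0203 (adjusted 0.982), and without AAV8-GFP mouse 2 it was −0.058 with an unadjusted limma p of 0.335. Scap, the escort (chromosome 9, 110333288 to 110384950, plus strand), had 3601, 4012, 3915, 3706 and 3717 normalised counts in AAV8-GFP mice 1 to 5 and 3692, 3653, 3793, 3796 and 3636 in AAV8-irisin mice 1 to 5. The AAV8-irisin mice lay within the range of AAV8-GFP. Of the 50-base words of Scap 13.1% are shared with an overlapping gene on the opposite strand, so its value is partly uncertain. The means were 3790.1 ± 168 normalised counts with AAV8-GFP against 3714 ± 76.4 with AAV8-irisin, which is −0.028 on the log2 scale (SE 0.036, 95% interval −0.11 to 0.050, limma adjusted p = 0.952), and −0.047 without AAV8-GFP mouse 1.

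Transport and removal of cholesterol were represented by 2 genes. Cyp46a1, the neuronal cytochrome P450 that hydroxylates cholesterol so that it can leave the brain (chromosome 12, 108334381 to 108362234, plus strand), had 5306, 4713, 4581, 4938 and 4939.7 normalised counts in AAV8-GFP mice 1 to 5 and 4919, 4952, 4804, 4991 and 4971 in AAV8-irisin mice 1 to 5. The AAV8-irisin mice lay within a narrow band inside the AAV8-GFP range. The means were 4896 ± 276 normalised counts with AAV8-GFP against 4927 ± 73.9 with AAV8-irisin, which is 0.011 on the log2 scale (SE 0.039, 95% interval −0.072 to 0.094, limma adjusted p = 0.975), and 0.040 without AAV8-GFP mouse 1. Stard4, a cytosolic sterol carrier and SREBP target, had 1042, 1037, 984, 989.5 and 984 normalised counts in AAV8-GFP mice 1 to 5 and 1163, 1042, 941, 1086 and 1004 in AAV8-irisin mice 1 to 5. AAV8-irisin mice held the highest value (mouse 1) and the lowest (mouse 3), and 3 of them exceeded every AAV8-GFP mouse. The means were 1007 ± 29.5 normalised counts with AAV8-GFP against 1047 ± 83.6 with AAV8-irisin, which is 0.053 on the log2 scale (SE 0.056, 95% interval −0.066 to 0.17, limma adjusted p = 0.945). Without AAV8-irisin mouse 1 the log2 difference was 0.015.

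Fatty acid synthesis, the branch driven mainly by SREBP-1, was divided in sign, with 3 genes higher, 2 lower and a median log2 difference of 0.0019. Acaca, the acetyl-CoA carboxylase that commits carbon to fatty acids (chromosome 11, 84129672 to 84401651, plus strand), had 2992, 3953, 3688, 3795 and 3412 normalised counts in AAV8-GFP mice 1 to 5 and 4213, 3781, 3295, 3939.7 and 4019 in AAV8-irisin mice 1 to 5. AAV8-GFP mouse 1 was the lowest of all, and AAV8-irisin mouse 1 the highest. The means were 3568 ± 378 normalised counts with AAV8-GFP against 3849.5 ± 347 with AAV8-irisin, which is 0.11 on the log2 scale (SE 0.076, 95% interval −0.050 to 0.27, limma adjusted p = 0.942). Without AAV8-GFP mouse 1 the log2 difference was 0.050, and without AAV8-irisin mouse 3 it was 0.17 with an unadjusted limma p of 0.0329 (adjusted 0.813). Of its 50-base words 52.6% are shared with another transcript model, so its value is uncertain. Fasn, the fatty acid synthase (chromosome 11, 120805846 to 120824547, minus strand), had 16378, 12688, 12171, 12292 and 12754 normalised counts in AAV8-GFP mice 1 to 5 and 12441, 11844, 13388, 12382 and 12608 in AAV8-irisin mice 1 to 5. AAV8-GFP mouse 1 stood far above the other 9 mice, which overlapped. The means were 13257 ± 1763 normalised counts with AAV8-GFP against 12532 ± 558 with AAV8-irisin, which is −0.073 on the log2 scale (SE 0.068, 95% interval −0.22 to 0.073, limma adjusted p = 0.942). Without that mouse the AAV8-GFP mean was 12476 ± 288 (SD, n = 4) and the log2 difference was 0.0056, so its sign turned.

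Scd1, a desaturase that makes oleate (chromosome 19, 44394455 to 44407879, minus strand), had 4811, 4886, 4989, 4947 and 4869.9 normalised counts in AAV8-GFP mice 1 to 5 and 5224, 4559.9, 4867, 5226 and 5135 in AAV8-irisin mice 1 to 5. The AAV8-GFP mice lay close together, and the AAV8-irisin mice spread to both sides of them. The means were 4900.4 ± 69 normalised counts with AAV8-GFP against 5002 ± 288 with AAV8-irisin, which is 0.028 on the log2 scale (SE 0.040, 95% interval −0.057 to 0.11, limma adjusted p = 0.955). Scd2, the main desaturase of the brain, had 47075 ± 965 normalised counts with AAV8-GFP against 47138 ± 956 with AAV8-irisin, or 0.0019 on the log2 scale with a 95% interval of −0.055 to 0.059, and −0.0047 without AAV8-GFP mouse 1. Acly, which supplies cytosolic acetyl-CoA to both branches, had 5984 ± 437 normalised counts with AAV8-GFP against 5808 ± 188 with AAV8-irisin, or −0.040 on the log2 scale. AAV8-GFP mouse 1 was its lowest mouse, as it was for Acaca, while it was the highest for Fasn. The log2 difference of Acly was −0.079 without that mouse, with an unadjusted limma p of 0.0517 (adjusted 0.982), and −0.013 without AAV8-GFP mouse 4.

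**Figure D3:**
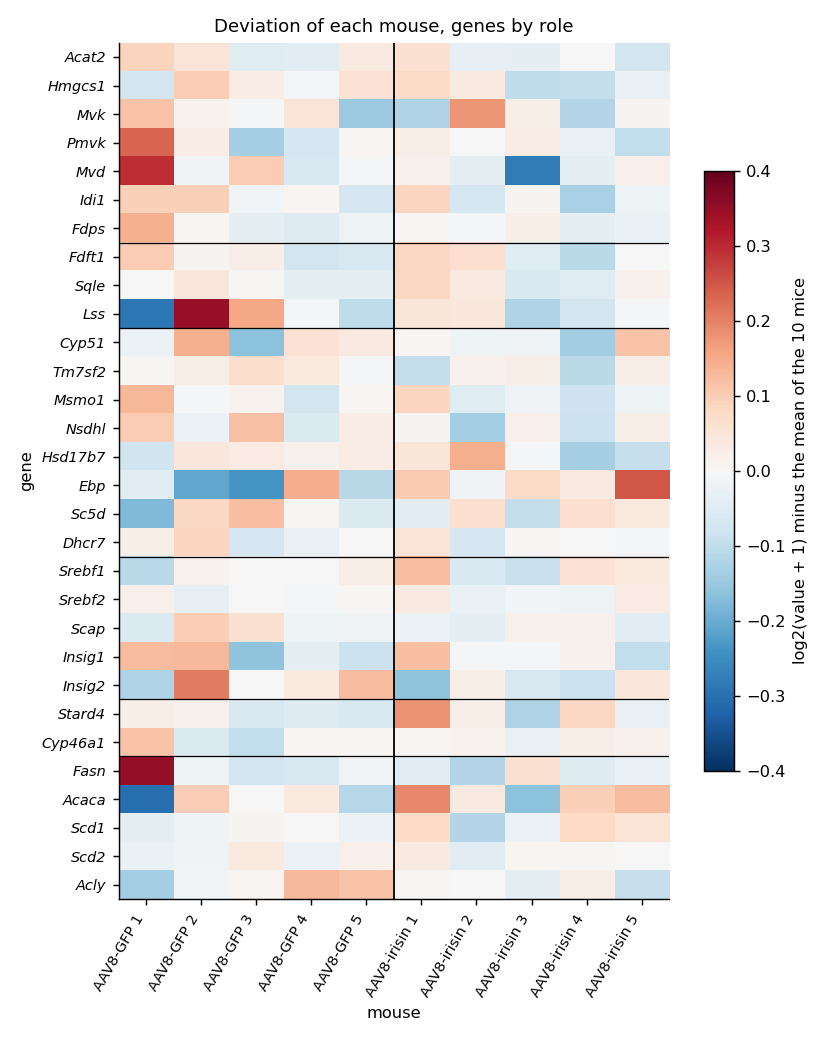
Deviation of log2(value + 1) from the mean of the 10 mice for each gene (rows, by role, separated by lines) in each mouse (columns, AAV8-GFP left and AAV8-irisin right of the line). AAV8-GFP mouse 1 holds the highest or lowest value of 15 of the 30 genes, strong colours also mark Lss in AAV8-GFP mouse 2 and Mvd in AAV8-irisin mouse 3, and no row divides cleanly at the line between the groups.

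Levels were compared between genes as normalised counts per kb of annotated exon, over all 10 mice. Scd2 was far above the rest at 8621 ± 166 (SD, n = 10), followed by Hmgcs1 at 1839.8 ± 92.2, Cyp46a1 at 1494 ± 58.2 and Srebf2 at 1349 ± 22 normalised counts per kb. By the exon length used here, the ranges of Scd2, Hmgcs1, Cyp46a1 and Srebf2 did not overlap from one to the next. The lowest levels were those of Tm7sf2 at 125 ± 4.86, Lss at 138 ± 16.8, Ebp at 157 ± 16.8 and Hsd17b7 at 161 ± 9.01 per kb. The length joins all annotated exons, 4403 bases for Tm7sf2, 10787 for Lss and 5104 for Hsd17b7. Their longest coding transcripts have 1498, 4667 and 4612 bases. For Hmgcs1 and Cyp46a1 the joined lengths are 4594 and 3287 bases, and the longest coding transcripts have 3464 and 2118. The order of genes, including which is lowest, and whether the ranges of neighbours overlap therefore depend on the length used. Of the 29 pairs of neighbours in the order, 24 had overlapping ranges over the mice, so most of the order below Srebf2 is not resolved. The spread between mice also differed among genes. Counting error is part of this spread and was not separated from it. SD over mean was lowest for Srebf2 at 1.63%, Scd2 at 1.92% and Sqle at 3.19%, and highest for Lss at 12.2%, Ebp at 10.7%, Acaca at 10%, Mvd at 10% and Fasn at 10%.

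**Figure D4:**
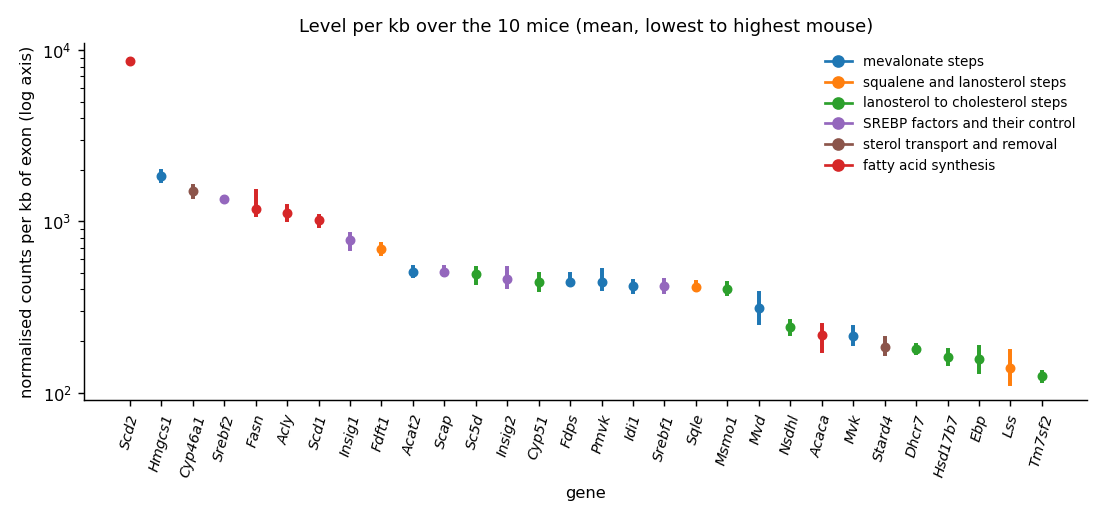
Level of each gene in normalised counts per kb of exon (log y axis), ordered from high to low and coloured by role, with the mean (point) and the lowest and highest of the 10 mice (line). The length joins all annotated exons of a gene. By it Scd2 is alone at the top at 8621 per kb, and Tm7sf2 is lowest at 125.

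Whether the genes varied together from mouse to mouse was then examined, as a description over 10 mice of both groups. Pearson's r over the 435 pairs of pathway genes had a median of 0.081, and 14.0% of pairs reached 0.5, beside a median of 0 and 9.27% over all pairs of genes tested. Over the 153 pairs of the 18 sterol enzymes the median was 0.13, with 16.3% of pairs at 0.5 or more. The highest pairs were Fdps with Fasn (r = 0.93) and Pmvk with Fdps (r = 0.93), and they leaned on AAV8-GFP mouse 1, without which r was 0.54 and 0.75. Fdft1 with Sqle, successive enzymes, had r = 0.78 with that mouse and 0.91 without it. Srebf1 with Acaca had r = 0.82 and 0.73. The most negative r was that of Scap with Cyp46a1 (−0.81 with or without that mouse). All these pairs share the same libraries and were picked as the extremes of 435, so they are given with no test.

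Hmgcs1 was set against each of the other 29 genes and against the mean log2 level of the neuronal, astrocytic and myelin markers, 32 relations in all. By permutation (100000 resamples, two-sided, n = 10 mice) 4 had an unadjusted p under 0.05 for Pearson's r, and 0 passed Benjamini-Hochberg adjustment over the 32 for r or for Spearman's rho. Lss had r = 0.71 (permutation p = 0.0155, adjusted 0.306) and rho = 0.72 (permutation p = 0.0229, adjusted 0.245). Hsd17b7 had r = 0.72 (permutation p = 0.0191, adjusted 0.306) and rho = 0.81 (permutation p = 0.00759, adjusted 0.173). Sqle had r = 0.69 (permutation p = 0.0301, adjusted 0.321) and rho = 0.78 (permutation p = 0.0108, adjusted 0.173). Without the 2 mice farthest from the median of Hmgcs1, AAV8-irisin mice 3 and 4, r was 0.75, 0.70 and 0.46 for Lss, Hsd17b7 and Sqle, so the relation with Sqle leaned on them. Neuronal markers had r = 0.65 (permutation p = 0.0453, adjusted 0.363) and rho = 0.68 (permutation p = 0.0350, adjusted 0.280), and r was 0.62 without those mice. Srebf2 had r = −0.033 with Hmgcs1 (permutation p = 0.924, adjusted 0.924) and rho = −0.018 (permutation p = 0.972, adjusted 1).

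**Figure D5:**
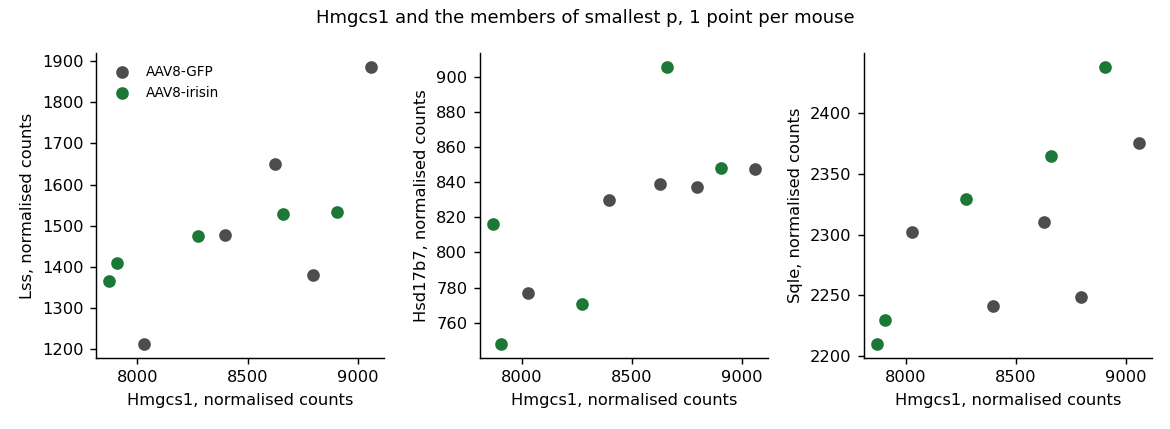
Normalised counts of Lss, Hsd17b7 and Sqle (y axes) against those of Hmgcs1 (x axes), 1 point per mouse, grey for AAV8-GFP and green for AAV8-irisin. Points rise from left to right in each panel (r = 0.71, 0.72 and 0.69 over 10 mice), none of the 3 relations passes adjustment, and the groups are mixed along both axes.

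Further genes of the pathway were taken from 3 lists of 50 genes, of which 49 were tested. None passed, 28 had higher and 21 lower means in AAV8-irisin, and the median log2 difference was 0.0045. At an unadjusted limma p under 0.05 lay 1 of the 49, Lbr, where 4.49% of all genes did. Among 27 tested genes of sterol handling and SREBP control, 17 were higher and 10 lower (median 0.0073). Lbr, a nuclear envelope protein that is also a sterol reductase, had 452, 494, 413, 418 and 369.9 normalised counts in AAV8-GFP mice 1 to 5 and 482, 472, 505, 480.2 and 473 in AAV8-irisin mice 1 to 5. AAV8-GFP mouse 2 lay within the AAV8-irisin values and the other 4 AAV8-GFP mice below all of them. The means were 429 ± 46.5 normalised counts with AAV8-GFP against 483 ± 13.6 with AAV8-irisin, which is 0.17 on the log2 scale (SE 0.073, 95% interval 0.018 to 0.33, limma adjusted p = 0.942), and the unadjusted p was 0.0315. Nr1h2, the oxysterol receptor LXR-beta, had 1399.8 ± 69.3 normalised counts with AAV8-GFP against 1309.9 ± 96.6 with AAV8-irisin, or −0.10 on the log2 scale, and Npc2, a lysosomal cholesterol carrier, had 1946 ± 127 normalised counts with AAV8-GFP against 1832 ± 132 with AAV8-irisin, or −0.088 on the log2 scale.

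Lipogenic targets of SREBPs had 5 higher and 9 lower means of 14 (median −0.019). Mid1ip1, which promotes polymerisation of acetyl-CoA carboxylase, had 2894 ± 60.3 normalised counts with AAV8-GFP against 2761 ± 89.2 with AAV8-irisin, or −0.068 on the log2 scale, and 4 of the AAV8-irisin mice fell under every AAV8-GFP mouse. Its relative Thrsp had a log2 difference of −0.066, and Slc25a1, the mitochondrial citrate carrier, of −0.10. In the branches that use isoprenoids for ubiquinone, dolichol and prenylation, 6 of 8 genes were higher (median 0.030). Pdss1, a synthase of the ubiquinone side chain, had 333 ± 22.5 normalised counts with AAV8-GFP against 372 ± 34.3 with AAV8-irisin, or 0.16 on the log2 scale, and 4 of the AAV8-irisin mice exceeded every AAV8-GFP mouse. Coq2, the next enzyme of ubiquinone synthesis, had a log2 difference of −0.072, and Pggt1b, a prenyltransferase subunit, of 0.083 (0.050 without AAV8-GFP mouse 1). The limma adjusted p was 0.942 for all 9 of these genes.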

How the data were processed

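Hippocampal RNA of 10 mice was sequenced after oligo(dT) capture and NEBNext Ultra library preparation, per the labels' protocols, which favours polyadenylated RNA. The submitters' processing notes name bcl2fastq 2.17, DESeq2 and build mm10. The choice of aligner, counting tool, strand setting and annotation is not given in the sources used here. What the authors deposited is 1 table of DESeq2 normalised counts (so named by its title), a non-negative signal for 31510 gene symbols in 10 libraries. Of its values under 5, 65.9% to 79.6% per library were whole multiples of the commonest low value (within 0.1), so whole reads were not recovered and no count test was run. Total over that value gave 30700000 to 41500000 reads per library as an estimate.

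Genes reaching 10 in 5 or more libraries were tested on log2(value + 1) with limma 3.58.1 in R 4.3.3 (group as factor, trend, two-sided, Benjamini-Hochberg over 17556 genes, threshold 0.05). Log2 differences on that scale understate changes of low genes. Titles name separate mice. The code was tested on simulated data. Positions, exon lengths and shared 50-base words come from GENCODE M21 (mm10), and all 30 symbols matched. Exons of Hmgcs1, Idi1, Fdft1, Lss, Cyp51, Srebf1 and Scap overlap genes on the opposite strand. The pathway genes and lists were chosen with earlier results of these data known. Values of each mouse are printed for 10 genes of interest, for genes with an unadjusted p under 0.05 and for the 2 of smallest p in each role, and the 3 of smallest p in each further list are named. Alternatives were TMM factors (computed from the values without the edgeR package), quantile normalisation, pseudocounts of 0.5 and 10, no filter, a mean of at least 50, array weights, no trend, the mouse number as a block, each mouse left out, and exact permutation.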

Additional observations from a re-analysis of the deposited data

Results flagged for a closer look

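In 60 groups of 5 values (30 genes in 2 groups), 5 held a mouse whose gap to its nearest neighbour exceeded 0.71 of the group's range. Chance flags about 1 in 20 such groups, or 3 of 60. AAV8-GFP mouse 1 accounted for 4 of them. It was high for Fasn, at 16378 normalised counts against 12754 in the next mouse of its group, and for Fdps, at 2061 against 1875. It was low for Srebf1, at 2186 against 2358, and for Hsd17b7, at 777 against 829.7. The remaining one was Mvd in AAV8-irisin mouse 3, at 476 normalised counts against 564 in the next mouse. The summed neuronal, astrocytic and choroid plexus markers were lowest of the 10 mice in AAV8-GFP mouse 1, and the part of this in the values was not tested.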

How the results depend on the processing

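No pathway gene, further lists included, had an adjusted p under 0.05 under any alternative that gave one. Exact permutation gave unadjusted p-values only. Without a filter on low values 1 of 26538 genes passed, Gm49383, which is in neither list and was listed at 0 in all AAV8-irisin libraries. Leaving out each mouse gave 0 to 2 pathway genes with an unadjusted p under 0.05 and 0 to 1 whose groups did not overlap. Of all genes 3.39% to 6.24% lay under that limit in these settings, and 1.29% to 2.14% did not overlap. Leaving out each mouse also gave 4 to 7 mevalonate genes with lower means, and medians of −0.023 to −0.00065 over the pathway. Array quality weights gave 4 mevalonate genes with lower means and turned the sign of Mvk (0.0078), Pmvk (0.0014), Fdps (0.0044), Fdft1 (0.026), Sc5d (−0.00039) and Scd2 (−0.0011). In 16 genes the sign turned when some mouse was left out, where log2 differences ranged over −0.058 to 0.017 for Mvk, −0.065 to 0.027 for Pmvk, −0.032 to 0.017 for Fdps, −0.022 to 0.025 for Fdft1, −0.0082 to 0.027 for Sqle, −0.12 to 0.039 for Lss, −0.063 to 0.014 for Cyp51, −0.055 to 0.013 for Hsd17b7, −0.031 to 0.043 for Sc5d, −0.024 to 0.015 for Dhcr7, −0.00056 to 0.052 for Srebf1, −0.0039 to 0.011 for Srebf2, −0.026 to 0.046 for Insig1, −0.013 to 0.040 for Cyp46a1, −0.10 to 0.0056 for Fasn and −0.0070 to 0.013 for Scd2. The cause was not tested.

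Mice share numbers between the groups by title only. Deviations of same-numbered mice correlated at −0.089 to 0.030, and no mouse correlated best with its own number. These correlations show no pairing by number but cannot exclude one, and the main test did not pair the mice. With the mouse number as a replicate block 0 genes passed and the pathway median was −0.017. Under the block and under array weights the gene with an unadjusted p under 0.05 was Insig2 (0.0465 and 0.0379, unadjusted, by limma) in place of Ebp (0.0508 and 0.0623). Of all genes 4.91% and 5.11% lay under that limit in these settings. The relations of Hmgcs1 that passed adjustment remained 0 with group means subtracted, without the 2 farthest mice, and without AAV8-GFP mouse 1, the last an alternative chosen after seeing the data. The median r over pathway pairs was 0.12 without that mouse. The planned count test was not run, and counting error was not separated from spread between mice.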

Other observations

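Paralogs and partners of the pathway were also compared within each mouse, as ratios of normalised counts per kb. Scd2 exceeded Scd1 by 8.60 ± 0.148 times with AAV8-GFP and 8.45 ± 0.370 times with AAV8-irisin (SD, n = 5 each, exact permutation p = 0.413, unadjusted). Insig1 over Insig2 was 1.63 ± 0.216 and 1.75 ± 0.195 (exact permutation p = 0.333), with the highest ratios in mouse 1 of each group, at 2.00 and 2.05. Srebf2 over Srebf1 was 3.25 ± 0.158 and 3.20 ± 0.160 (exact permutation p = 0.651). The differences of all 3 ratios were smaller than the larger SD of the groups.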
